A study of Homo sapiens with 6 samples.

Results

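CCNA2, MAD2L1, PLK4, CENPE and H2AFZ are 5 cell-cycle genes that lie between 98 and 130 Mb on the long arm of chromosome 4. They were chosen by that position, in a stretch whose genes are lower in OVCAR5R, and are 5 of the 84 rows there and of 12308 rows in all. The values that chose the genes are the values described below, so their difference between the lines carries no test. OVCAR5 is a BRCA wild-type ovarian cancer cell line, grown here without drug as the parent. OVCAR5R is its Prex-resistant (PrexR) derivative, obtained from the same line by stepwise selection in the CHK1 inhibitor (CHK1i) prexasertib (Prex) up to 3 µM, kept at 2 µM, and then cultured off the drug for 4 days or longer before use. RNA-seq of total RNA gave 3 libraries per line. The comparison asks how these genes and other cell-cycle genes stand in a resistant line that the study describes as delayed in G2 phase.

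The 5 products act at successive steps of the division cycle. Cyclin A2 (CCNA2) binds CDK2 in S phase and CDK1 in G2, and PLK4 is the kinase that starts centriole duplication. MAD2 (MAD2L1) holds back the anaphase-promoting complex until kinetochores are attached, CENP-E is the kinesin that carries chromosomes to the spindle equator, and H2A.Z (H2AFZ) is a histone variant placed at promoters and centromeric chromatin. Transcripts of the first 4 accumulate toward G2 and mitosis in dividing cells. Their level in a bulk sample thus depends on the share of cells in these phases as well as on the RNA per cell. By flow cytometry the study found a larger G2 population in PrexR cells than in parental cells at baseline, with a smaller mitotic part of it. The part of each in the values below was not tested.

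The libraries held 35.8 to 41.3 estimated reads in OVCAR5 and 50.3 to 55.1 in OVCAR5R, in units of 1e6. At least 811 estimated reads stood behind each value of the 5 genes. OVCAR5 replicate 2 stood apart from the other libraries, at -72.0 on the first principal component against -10.6 to 34.6. The summed value of 7 epithelial markers with a row, of 8 listed, was 17430 in it, against 2388 and 2467 in the other OVCAR5 libraries and 3605 to 4816 in OVCAR5R. The sum of 7 mesenchymal markers, of 9 listed, was 407, against 1571 to 3802 elsewhere. Of 8 Müllerian and ovarian carcinoma markers, 4 had a row (PAX8, WT1, MSLN and FOLR1), with sums of only 11.3 to 34.0 in OVCAR5 and 8.63 to 11.3 in OVCAR5R. Of 6 blood cell markers 1 had a row, CD14, at 3.55 to 20.2 in OVCAR5 and 2.02 to 5.67 in OVCAR5R. The part of the epithelial and mesenchymal markers in the values below was not tested. The main values of the 5 genes and of the lists are also given without OVCAR5 replicate 2 where it moves them.

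CCNA2 lies on chromosome 4 of GRCh38 from 121816444 to 121823933, on the minus strand. Its normalized values, on a linear scale, were 70.8, 59.4 and 101 in replicates 1, 2 and 3 of OVCAR5, against 53.1, 44.0 and 57.3 in those of OVCAR5R. Every OVCAR5R library lay below every OVCAR5 library, although the gap between the nearest libraries was small. The means were 77.0 ± 21.3 and 51.5 ± 6.78 (SD, n = 3 each), so that OVCAR5R held 66.9% of the OVCAR5 value, a difference of -0.55 in mean log2(value + 1).

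MAD2L1, from 120055608 to 120067074 on the minus strand, had normalized values of 74.4, 48.3 and 93.1 in the OVCAR5 replicates and 51.3, 41.0 and 53.0 in the OVCAR5R replicates. OVCAR5 replicate 2 lay among the OVCAR5R libraries, so the groups overlapped, while OVCAR5 replicates 1 and 3 lay above all of OVCAR5R. The means were 71.9 ± 22.5 and 48.4 ± 6.45 (SD, n = 3 each), a log2 difference of -0.52.

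PLK4, from 127880861 to 127899195 on the plus strand, was the lowest of the 5 genes in the table, with 35.1, 23.5 and 46.0 in OVCAR5 and 25.1, 20.1 and 23.8 in OVCAR5R. Again OVCAR5 replicate 2 alone reached into the range of OVCAR5R. The mean normalized value was 34.8 ± 11.3 against 23.0 ± 2.59 (SD, n = 3 each), a log2 difference of -0.53.

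CENPE, from 103105806 to 103198409 on the minus strand, was spread most between cultures, with normalized values of 106, 44.7 and 115 in OVCAR5 and 65.0, 35.4 and 49.8 in OVCAR5R. Its SD on the log2 scale was 0.75 in OVCAR5 and 0.43 in OVCAR5R, where the median over all genes was 0.34 and 0.25. The means of 88.9 ± 38.5 and 50.0 ± 14.8 (SD, n = 3 each) gave the lowest difference of the 5 genes, -0.74 on the log2 scale, but the groups overlapped through OVCAR5 replicate 2.

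H2AFZ, from 99948086 to 99950388 on the minus strand and now named H2AZ1, had normalized values of 342, 362 and 474 in OVCAR5 and 285, 237 and 381 in OVCAR5R. Here the overlap came from OVCAR5R replicate 3, which lay above OVCAR5 replicates 1 and 2. The means of 393 ± 71.3 and 301 ± 73.6 (SD, n = 3 each) gave a log2 difference of -0.40, or 76.6% of the OVCAR5 value.

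The groups thus did not overlap for 1 of the 5 genes, where 8.18% of all 11766 genes tested were lower in OVCAR5R without overlap. Without OVCAR5 replicate 2 they did not overlap for 4 of the 5 (13.7% of all genes). Without that library the log2 differences were -0.71 for CCNA2, -0.78 for MAD2L1 and PLK4, -1.17 for CENPE and -0.45 for H2AFZ. Without OVCAR5 replicate 3 they were -0.34, -0.31, -0.31, -0.50 and -0.25 in the same order, and without OVCAR5R replicate 2 that of H2AFZ was -0.24. All 5 genes had their highest value in OVCAR5 replicate 3 and their lowest in OVCAR5R replicate 2. Per kilobase of the principal transcript, the levels in OVCAR5 were 401 ± 72.8 for H2AFZ, 27.5 ± 7.62 for CCNA2, 13.2 ± 4.11 for MAD2L1, 10.3 ± 4.47 for CENPE and 9.07 ± 2.93 for PLK4 (SD, n = 3). H2AFZ and CCNA2 stood apart in this order, whereas MAD2L1, CENPE and PLK4 differed by less than their spread. In OVCAR5R the same order held for H2AFZ at 307 ± 75.2, CCNA2 at 18.4 ± 2.42 and MAD2L1 at 8.86 ± 1.18 per kilobase, and PLK4 at 5.99 ± 0.674 and CENPE at 5.81 ± 1.72 were within their spread (SD, n = 3).

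**Figure D1:**
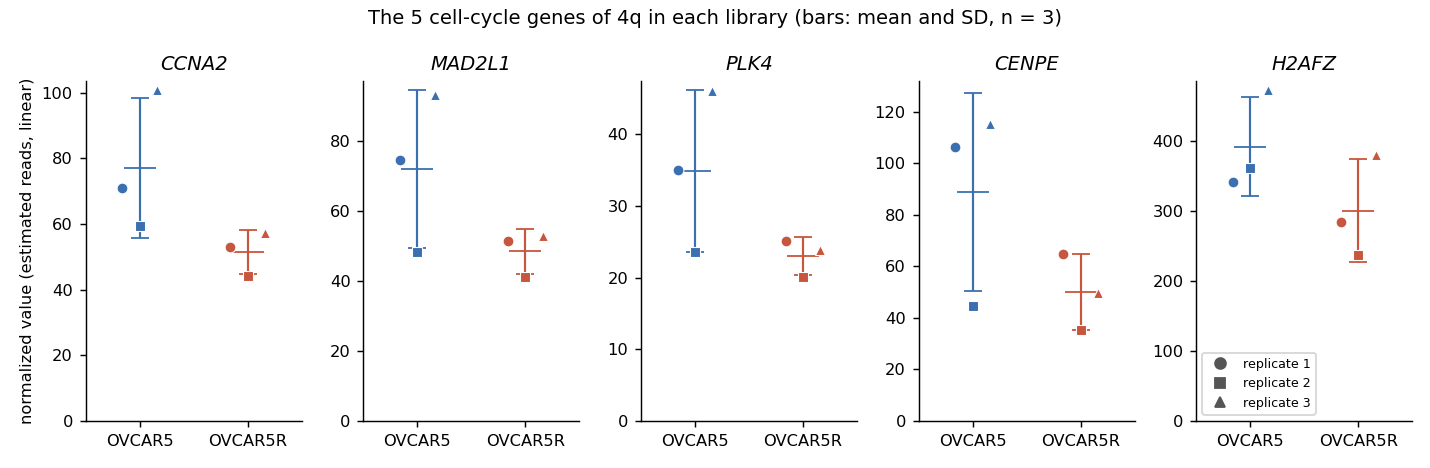
Normalized values (linear, vertical axes from 0) of CCNA2, MAD2L1, PLK4, CENPE and H2AFZ in 3 OVCAR5 (blue) and 3 OVCAR5R (red) libraries, with the replicate number as symbol and bars for mean and SD (n = 3). OVCAR5 replicate 2 (squares) falls into the range of OVCAR5R for MAD2L1, PLK4 and CENPE, and OVCAR5R replicate 3 (triangles) reaches the OVCAR5 range for H2AFZ at 381.

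The promoters of the 5 genes were also compared, as a description of their sequence only. Many genes of G2 and mitosis carry a CHR element (TTTGAA, or CTTGAA as a variant), which the MuvB core of the DREAM and B-MYB complexes binds, together with CCAAT boxes for NF-Y, and genes of S phase often carry E2F sites with the core GCGGGA. These 4 motifs were chosen after the sequences were seen. They were searched on both strands in RefSeq windows (GRCh38.p14) from 250 bases before to 50 bases after the gene start, and no match overlapped another. A CHR-type match, of either form, was in 4 of the 5 windows. The share of all windows with either form was not computed, so only the share of each form is given. TTTGAA was in those of MAD2L1, PLK4 and H2AFZ (15.2% of 35116 RefSeq windows), and CTTGAA was in that of CCNA2 (11.2%). The 30 bases around the most downstream CHR-type match are shown 5′ to 3′ on the strand of the gene. GCGGGA was in the same 4 windows, so the CHR-type match is not the only feature that they share. Capitals mark a CHR-type match, read as TTCAAA on this strand in PLK4, and a GCGGGA match where one lies in the same 30 bases.
CCNA2: agtcGCGGGAtaCTTGAActgcaagaacag
MAD2L1: tgcgtcgttactTTTGAAacgcttggcggg
PLK4: ggcaagcgGCGGGAgattTTCAAAatggga
H2AFZ: gagacagcgcagTTTGAAtcgcggtgcgac
These lie at chr4:121823894-121823923 for CCNA2, chr4:120066807-120066836 for MAD2L1, chr4:127880913-127880942 for PLK4 and chr4:99950254-99950283 for H2AFZ. Counted from its RefSeq start, the CHR-type match of CCNA2 began 28 bases before that start, and a further one 87 bases before it. Those of MAD2L1, PLK4 and H2AFZ began at base 25, 39 and 5 after their RefSeq starts. The RefSeq starts differ from the GENCODE positions given above, by which all 4 printed stretches lie inside the genes. CCAAT was found for CCNA2, MAD2L1 and H2AFZ (34.6% of windows) and GCGGGA for all but CENPE (26.9% of windows). The CENPE window held no match to any of the 4 motifs. A match describes letters only and says nothing of binding.

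Next, the 5 genes were set beside the other genes of their stretch. Of the 84 rows, 81 were tested and 79 had a lower mean log2(value + 1) in OVCAR5R. The 76 genes other than the 5 had a median log2 difference of -0.77, against -0.07 for 307 genes on the rest of chromosome 4 and -0.01 for all genes. In this stretch 54 of 81 genes, or 66.7%, were lower without overlap, beside 8.18% of all genes, but the stretch was picked for its lower values and nothing is read from that count. With all libraries, the difference of each of the 5 genes lay above this median, for CENPE by little. Counted from the lowest of the 81, CENPE was at rank 41, CCNA2 at 63, PLK4 at 66, MAD2L1 at 68 and H2AFZ at 72. Without OVCAR5 replicate 2 the median of the other 76 genes was -0.82, CENPE with -1.17 lay below it at rank 16, and PLK4 and MAD2L1 with -0.78 lay close to it at ranks 43 and 45, while CCNA2 was at rank 57 and H2AFZ at 72. Without OVCAR5R replicate 1 CENPE with -0.95 lay below the median of -0.72 as well. Relative to the median of the other stretch genes in the same library, they stood 0.07 (CENPE) to 0.42 (H2AFZ) higher in OVCAR5R than in OVCAR5 on the log2 scale, with overlap for each. This offset also rested on single libraries. Without OVCAR5 replicate 2 it was -0.35 for CENPE, 0.04 for PLK4, 0.05 for MAD2L1, 0.11 for CCNA2 and 0.38 for H2AFZ. Without OVCAR5R replicate 1 it was -0.15 for CENPE and 0.20 to 0.43 for the other 4, and without OVCAR5 replicate 3 it was 0.36 for CENPE and 0.52 to 0.60 for the others.

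The extremes of the stretch lay far from the 5 genes. SPRY1, an inhibitor of receptor tyrosine kinase signaling, went from 41.4 ± 12.6 to 4.83 ± 0.347 (SD, n = 3 each), a log2 difference of -2.82, and CFI and PDE5A followed with -2.15 and -2.01. At the other end, AC004057.1, EEF1A1P9 and TRMT10A had 0.26, 0.10 and -0.01. At the borders, RAP1GDS1 as the first gene inside had -0.25 and C4orf33 as the last had -1.01, whereas the nearest tested genes outside were PDLIM5 with -0.44 and SLC7A11 with -1.53.

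**Figure D2:**
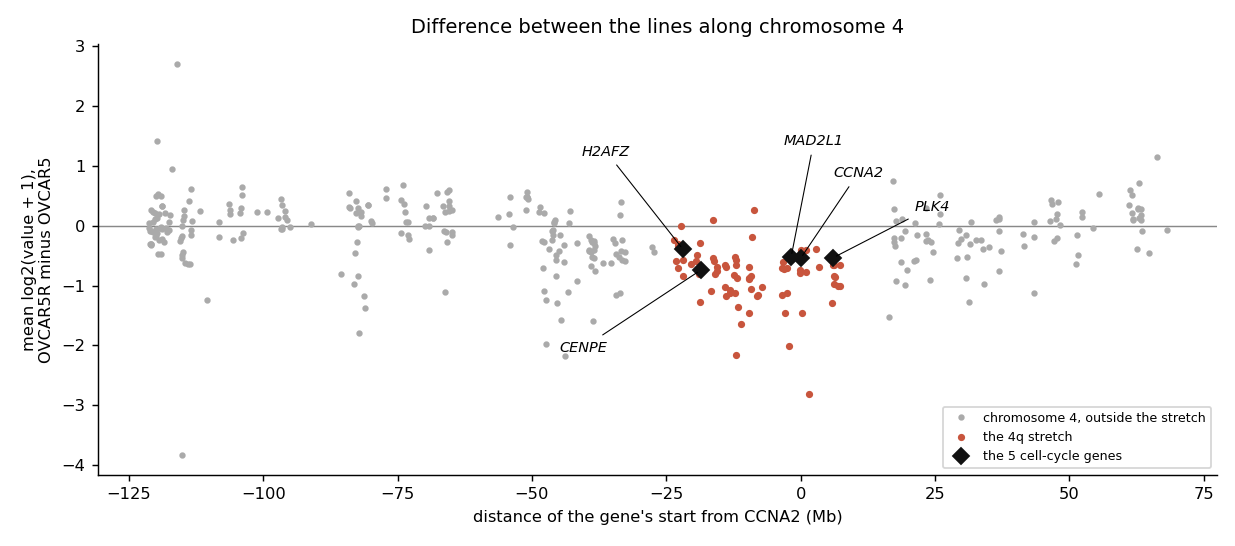
Difference in mean log2(value + 1), OVCAR5R minus OVCAR5, of each tested gene of chromosome 4 against the distance of its start from that of CCNA2 in Mb. The 5 cell-cycle genes (black diamonds, -0.74 to -0.40 with all libraries) lie above the median of the other genes of the stretch (red) at -0.77, which for CENPE does not hold without OVCAR5 replicate 2 or OVCAR5R replicate 1, and grey points are the rest of the chromosome.

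The nearest tested neighbors had lower means as well. They lie in the stretch that was picked for its lower values, so nothing is read from this. EXOSC9, an exosome subunit gene that overlaps the 3′ end of CCNA2 on the opposite strand, had a log2 difference of -0.80. BBS7, whose end lies 0.507 kb from the GENCODE start of CCNA2, had -0.40. Both were lower in OVCAR5R without overlap, and CCNA2 lay between them with -0.55. Whether reads were counted by strand is not given in the sources used here, so reads of CCNA2 and EXOSC9 in their shared bases cannot be told apart. PLK4 with -0.53 lay between HSPA4L with -0.65 and MFSD8 with -0.98, and CENPE with -0.74 between BDH2 with -1.27 and TET2 with -1.10. MAD2L1 with -0.52 had PDE5A and ANXA5 (-0.74) as neighbors. H2AFZ with -0.40 had DNAJB14 with -0.57 and PPP3CA with -0.65. H2AFZ also has 6 pseudogenes by name and a near-identical paralog, H2AFV on chromosome 7, so its reads are uncertain. H2AFV had 320 ± 24.2 and 349 ± 48.6 in OVCAR5 and OVCAR5R, in that order (SD, n = 3 each), a log2 difference of 0.12.

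Along the chromosome, the 3 OVCAR5R libraries were low over different lengths, and the 5 genes differ in where they lie on them. In bins of 10 Mb, relative to the OVCAR5 mean, all 3 OVCAR5R libraries were low from 100 to 130 Mb, with medians of -1.05 to -0.63. From 80 to 98 Mb, 33 genes had medians of -0.73 and -0.66 in OVCAR5R replicates 1 and 2 but 0.04 in replicate 3. From 130 to 160 Mb the pattern was turned around, as 49 genes had 0.06 and -0.10 in replicates 1 and 2 and -0.75 in replicate 3.

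H2AFZ lies near the proximal edge, where OVCAR5R replicate 3 was not low. The edge for this count, at 102.5 Mb, was chosen after the values were seen. The 10 other tested genes from 98 to 102.5 Mb had medians of -0.68, -0.73 and 0.13 in replicates 1, 2 and 3 of OVCAR5R, and H2AFZ itself had -0.45, -0.71 and -0.03. In the OVCAR5 libraries the same 10 genes had 0.03, -0.28 and 0.16, and H2AFZ had -0.19, -0.10 and 0.29. DNAJB14, which lies 1.36 kb from H2AFZ, had normalized values of 19.7, 13.5 and 39.6 in OVCAR5R, with replicate 3 highest as for H2AFZ.

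The other 4 genes lie beyond this edge, where the 66 other genes up to 130 Mb had medians of -0.91, -0.91 and -0.77 in OVCAR5R. OVCAR5R replicate 3 had -0.39 for CCNA2 and MAD2L1, -0.48 for PLK4 and -0.71 for CENPE, so that each was below the OVCAR5 mean in that library. OVCAR5R replicate 2 had -0.76, -0.75, -0.71 and -1.19 for the same 4 genes, and replicate 1 had -0.49, -0.43, -0.41 and -0.33.

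**Figure D3:**
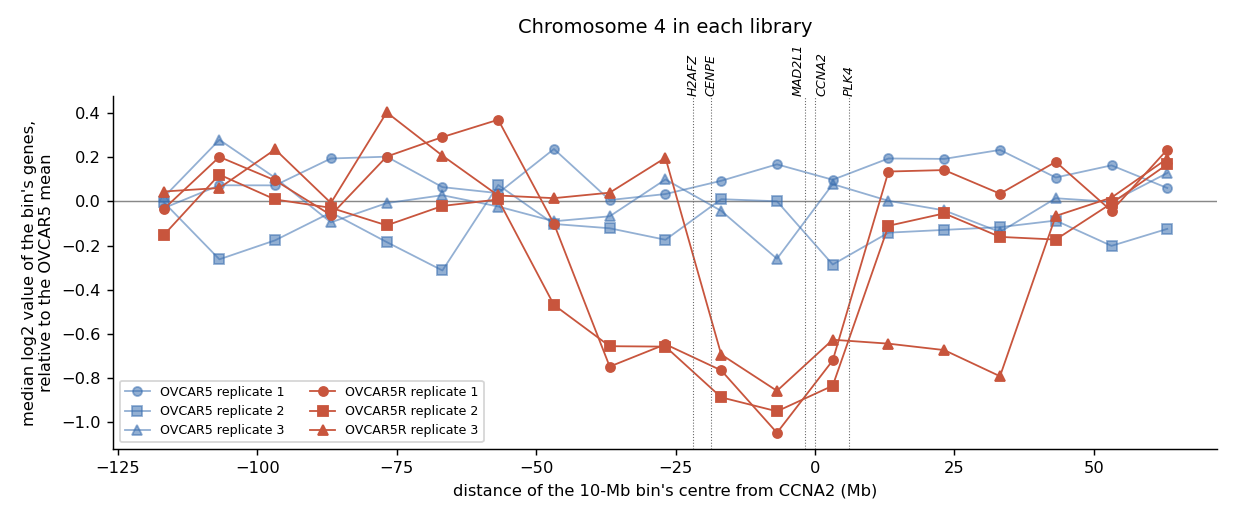
Median log2 value of the tested genes in each 10-Mb bin of chromosome 4, relative to the mean of OVCAR5, for each OVCAR5 (blue) and OVCAR5R (red) library against the distance of the bin's centre from the start of CCNA2. Dotted lines mark the 5 genes, H2AFZ lying where OVCAR5R replicate 3 is still near 0 and the other 4 where all 3 OVCAR5R libraries are low.

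The 5 genes were then compared with cell-cycle genes elsewhere, in lists by role with genes of chromosome 4 left out. Some genes, such as BUB1 and KIF11, are in more than 1 list, so the medians of the lists are not independent. Each gene counts once among the 206 genes of all lists. None of the 206 listed genes had an adjusted p under 0.05 with limma, where 0.102% of all genes were called lower and 0.0170% higher. At an unadjusted p under 0.05, 13 were higher (4.14% of all genes) and 2 lower (6.25% of all genes). By their mean log2(value + 1), which is what higher by the mean refers to in these lists, 148 of the 206 were higher in OVCAR5R. The same was true of 5791 of all 11766 genes tested. Without OVCAR5 replicate 2, 125 of the 206 were higher. With all libraries, 2 of the 206 were lower without overlap (8.18% of all genes) and 25 were higher without overlap (8.40% of all genes).

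The S phase list had a median log2 difference of 0.29, with 33 of 41 genes higher by their mean, and the G2/M phase list a median of 0.27, with 43 of 51 higher, beside -0.01 over all genes. Without OVCAR5 replicate 2 the medians were 0.16 and 0.10, with 32 of 41 and 32 of 51 genes higher, and without OVCAR5 replicate 3 they were 0.45 and 0.46. The lowest of the S phase list were CDC45, a subunit of the replicative helicase, with -1.14 and MCM5, part of the same helicase, with -0.89. The highest were DSCC1, a subunit of a clamp loader, with 0.91 and CLSPN, the adaptor through which ATR activates CHK1, with 0.77. The lowest of the G2/M list were CBX5, the heterochromatin protein HP1α, with -0.76 and LBR, the lamin B receptor, with -0.43, and the highest were DLGAP5, a spindle protein, with 0.83 and G2E3 with 0.75. Adjusted p-values of these 8 genes were between 0.27 and 0.613 (limma). Of these, CLSPN had 0.40 and G2E3 0.37 without OVCAR5 replicate 2. The normalized values of CDC45 in OVCAR5R replicates 1, 2 and 3 were 21.7, 23.9 and 82.0, against 57.7 to 112 in OVCAR5. Those of MCM5 were 80.1, 268 and 158, against 255 to 314. The groups thus overlapped through OVCAR5R replicate 3 for CDC45 and OVCAR5R replicate 2 for MCM5.

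Among 28 partners and regulators of cyclin A, CDK1 and CDK2, 19 were higher by their mean and the median log2 difference was 0.23, beside -0.55 for CCNA2. The median was 0.10 without OVCAR5 replicate 2 and 0.14 without OVCAR5R replicate 1. CDK2, the S phase partner of cyclin A, had 61.9 ± 11.3 in the parent and 88.6 ± 6.45 in the resistant line (SD, n = 3 each), a log2 difference of 0.52 (SE 0.20, adjusted p = 0.436 from limma), with no overlap of the libraries. CDK1 had 96.2 ± 13.5 and 122 ± 29.7 (SD, n = 3 each), with 0.32 (SE 0.23, adjusted p = 0.665 from limma). CCNB1, the cyclin of mitotic entry, had 175, 193 and 289 in OVCAR5 and 297, 189 and 131 in OVCAR5R. The ranges of CCNB1 overlapped fully, and its log2 difference of -0.14 (SE 0.33, adjusted p = 0.92 from limma) became 0.08 without OVCAR5 replicate 3 and 0.15 without OVCAR5R replicate 3. By immunoblot the study found lower CyclinB1 protein in OVCAR5R, and from qPCR of CCNB1 it placed this at the level of transcription. It also reported many PrexR cells in G2 phase without CyclinB1. Why the RNA-seq values of CCNB1 differ from the qPCR was not tested. The other ends of this list were CCNE1 (0.73) and LIN52, of the MuvB core (0.70), and the inhibitors CDKN1C (-0.65) and CDKN1B (-0.47).

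For the spindle assembly checkpoint, 18 of 20 genes were higher by their mean with a median of 0.32, beside -0.52 for MAD2L1. When OVCAR5 replicate 2 was left out, 15 of 20 were higher with a median of 0.18, and without OVCAR5 replicate 3 the median was 0.52. SPDL1 and TRIP13, the ATPase that remodels MAD2, had log2 differences of 0.64 and 0.55 (0.30 and 0.35 without OVCAR5 replicate 2), and MAD1L1, which anchors MAD2 at kinetochores, had -0.25. PTTG1, the securin, had -0.14, which became 0.04 without OVCAR5 replicate 3 and 0.09 without OVCAR5R replicate 3.

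For kinetochore genes and mitotic kinesins, 28 of 37 were higher by their mean with a median of 0.26, beside -0.74 for CENPE. With OVCAR5 replicate 2 left out, 22 of 37 were higher with a median of 0.08, beside -1.17 for CENPE, and without OVCAR5 replicate 3 the median was 0.40. CENPI and CENPL, of the constitutive centromere network, had 0.86 and 0.57 (0.52 and 0.34 without OVCAR5 replicate 2), and CENPT, of the same network, and the kinesin KIF22 had -0.50 and -0.36. In the centriole list, 12 of 23 genes were higher by their mean with a median of 0.02, beside -0.53 for PLK4. This median was -0.08 without OVCAR5 replicate 2, -0.07 without OVCAR5R replicate 1, 0.05 without OVCAR5R replicate 2 and 0.14 without OVCAR5 replicate 3, so it has no fixed sign. STIL, the direct partner of PLK4, had 0.36 (0.17 without OVCAR5 replicate 2) and TUBG1, a γ-tubulin gene, had 0.60, whereas CETN3 had -0.55 and CENPJ had -0.42 (-0.68 without that library). Of 27 genes of H2A variants and H2A.Z exchange, 13 were higher by their mean with a median of -0.02, beside -0.40 for H2AFZ. RUVBL1 and YEATS4, subunits of complexes that place H2A.Z, had 0.39 and 0.40, and the variants H2AFY2 and H2AFJ had -1.45 and -1.13, both with their highest value in OVCAR5 replicate 2 and at -0.69 and -0.53 without it.

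Listed cell-cycle genes that lie on chromosome 4 outside the stretch had log2 differences of 0.57 for CEP135, 0.21 for SLBP, 0.19 for CENPC, 0.13 for CENPU, 0.11 for TACC3 and -0.16 for HMGB2. The limma fit gave these 6 genes adjusted p-values of 0.498 to 0.909. The difference of each was above that of each of the 5 genes. As the 5 come from a stretch picked for its lower values, nothing is read from this order. The lists do not hold every cell-cycle gene of the chromosome. Of others outside the stretch, LIN54 had -0.52, CCNG2 had -1.57 and NCAPG had 0.64.

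**Figure D4:**
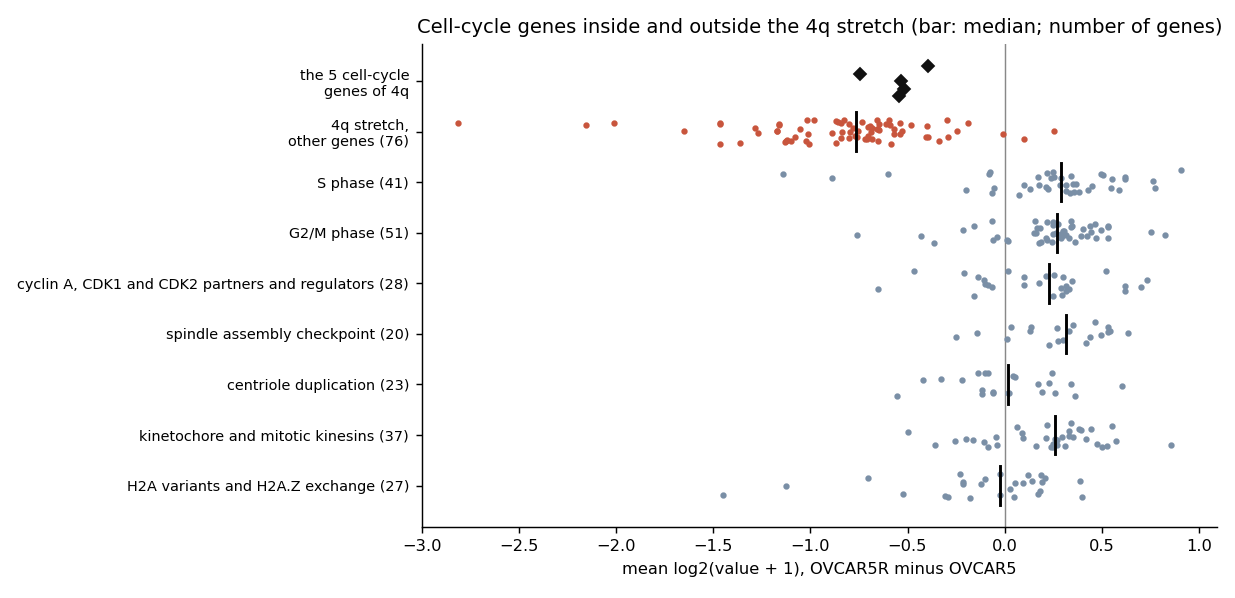
Difference in mean log2(value + 1), OVCAR5R minus OVCAR5, of the 5 genes (black), of the other 76 genes of the 4q stretch (red) and of cell-cycle genes on other chromosomes by list, 1 point per gene with a bar for the median and the number of genes in parentheses. The 5 genes lie from -0.74 to -0.40, between the median of the stretch at -0.77 and the medians of the lists at -0.02 to 0.32, but without OVCAR5 replicate 2 CENPE is at -1.17, below a stretch median of -0.82.

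Since the libraries also differed in their level of G2/M transcripts, each of the 5 genes was set against other cell-cycle genes of its own library. The median of the G2/M list, relative to the OVCAR5 mean, stood at -0.01, -0.33 and 0.34 for replicates 1, 2 and 3 of OVCAR5, against 0.46, 0.18 and 0.24 for those of OVCAR5R. The OVCAR5 replicate that was low for MAD2L1, PLK4 and CENPE was low for the list as well. Relative to the G2/M median, the log2 difference between the lines was -0.83 for CCNA2, -0.81 for MAD2L1, -0.82 for PLK4, -1.03 for CENPE and -0.68 for H2AFZ. The list's median was on average higher in OVCAR5R, so its subtraction lowers the difference of every gene tested by the same amount. That these differences are larger than those above is thus not particular to the 5 genes.

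On this scale the groups did not overlap for 5 of the 5 genes, with or without OVCAR5 replicate 2. Of all genes tested, 13.8% were lower without overlap on the same scale, and 16.1% without that library. The 5 genes were chosen on the same contrast, so their count is a description. CCNA2 was at -0.08, -0.01 and 0.08 in OVCAR5 and -0.95, -0.94 and -0.62 in OVCAR5R, and its SD in OVCAR5 was 0.08 on this scale against 0.38 before. H2AFZ came nearest to overlap, with -0.18, 0.23 and -0.05 in OVCAR5 and -0.90, -0.89 and -0.26 in OVCAR5R. CENPE kept a wide spread, with 0.38, -0.53 and 0.15 in OVCAR5 and -0.79, -1.37 and -0.94 in OVCAR5R.

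Relative to the S phase list the groups again did not overlap for 5 of the 5 genes (15.7% of all genes), with differences of -1.04 for CENPE to -0.69 for H2AFZ. Here too the difference of every gene was lowered by the same amount, as the list's median was higher in OVCAR5R. Relative to its own list of partners, the difference was -0.72 for CCNA2, -0.80 for MAD2L1, -0.56 for PLK4 and -1.02 for CENPE, each without overlap. The share of all genes without overlap was not computed on the scales of these lists. As the genes were chosen on this contrast, nothing is read from that separation. H2AFZ differed by -0.39 from the list of H2A variants and H2A.Z exchange, with overlap through OVCAR5R replicate 3 at 0.02.

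**Figure D5:**
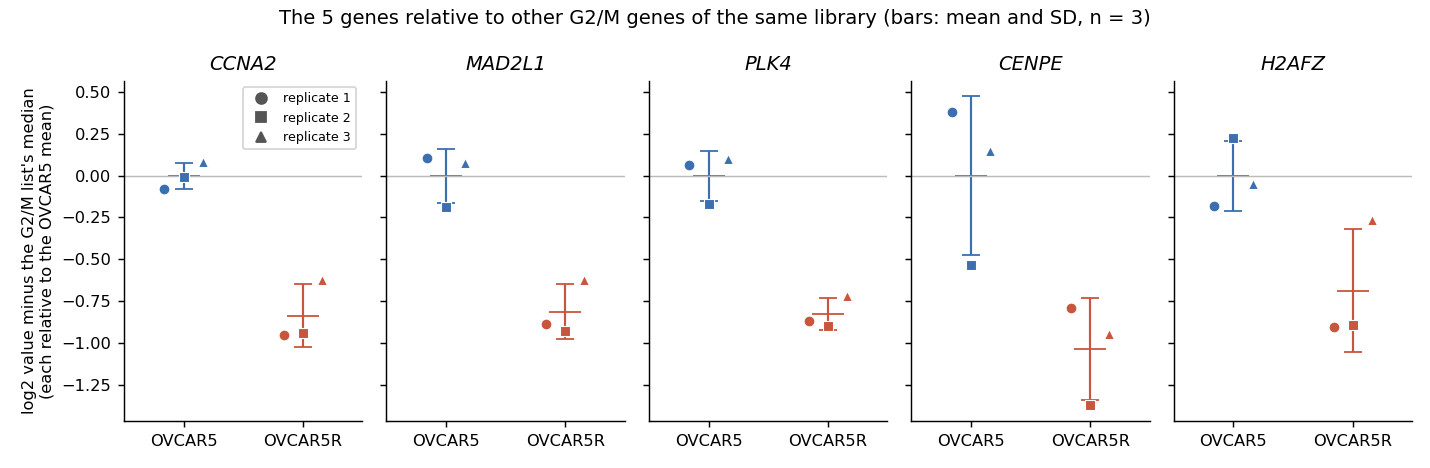
Log2 value of each of the 5 genes minus the median of the G2/M list in the same library, both relative to the OVCAR5 mean, in OVCAR5 (blue) and OVCAR5R (red), with the replicate number as symbol and bars for mean and SD (n = 3). Every red point lies below every blue point of the same gene, with the smallest gap for H2AFZ, where OVCAR5R replicate 3 is at -0.26.

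Finally, genes were ranked by how their log2 values followed the mean of the 5 genes over the 6 libraries. Pearson's r to that mean, which contains each gene itself, was 0.99 for MAD2L1 and PLK4, 0.98 for CCNA2, 0.95 for CENPE and 0.82 for H2AFZ. Over 6 libraries that differ in depth and line, r is a description only. Outside the stretch, the most alike were ZNF8 (r = 0.985), PRR12 (0.974), CBX5 (0.972), PRICKLE1 (0.971) and FARP1 (0.970). CBX5 was the 1 gene of the cell-cycle lists among the top 100, where these lists hold 1.75% of all genes tested. The normalized values of CBX5 were 273, 141 and 285 in OVCAR5 and 142, 100 and 157 in OVCAR5R. Its groups overlapped, as OVCAR5 replicate 2 fell among the OVCAR5R libraries. The median r was 0.61 for the other 76 genes of the stretch, 0.11 for the 206 cell-cycle genes on other chromosomes and 0.00 for all genes. The stretch, and with it the 5 genes, was picked for lower values in OVCAR5R. A higher r within it follows in part from that choice, and nothing is read from it.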

How the data were processed

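RNA-seq of total RNA from 3 cultures each of OVCAR5 and OVCAR5R was analyzed from 1 table that the authors deposited. Its values are a normalized signal per gene symbol and library on a linear scale, quartile normalized per the supplementary methods, and hg38 is named in the submitters' processing notes. The aligner, the counter and the use of strand are not given in the sources used here. Low values were multiples of a step, taken as 1 estimated read, but only 61.7% to 65.6% of values were whole multiples (within 0.005), so count tests were not used. The table had 12309 rows, of which 1 identical copy was dropped. Nothing in the labels says that the cultures were independent, so p-values measure the spread between these libraries.

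Values were taken as log2(value + 1). The 11766 genes with at least 1 in 3 or more libraries were tested by limma (version 3.58.1, under R version 4.3.3), with a variance trend in eBayes and two-sided p-values adjusted after Benjamini and Hochberg at 0.05. A fold on this scale understates that of low genes. The study names an unpaired rank test, which cannot give a p under 0.1 with 3 against 3. The test was checked on simulated data. Positions and principal transcripts came from GENCODE 29 (GRCh38), in which 99.4% of rows matched by symbol. Promoter windows came from RefSeq, where all 5 genes matched, H2AFZ as H2AZ1. Figures were drawn with matplotlib in Python.

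The 5 genes, the stretch and the lists were chosen with earlier results of these data known. Named genes are the 5, the 2 highest and 2 lowest of each list off chromosome 4 and any listed gene with an adjusted p under 0.05, CCNB1, CDK1 and CDK2, the nearest tested gene on each side of each of the 5, the 5 genes outside the stretch with the highest r, and the 3 highest and 3 lowest genes of the stretch. H2AFV, DNAJB14, the genes at the borders, the listed genes elsewhere on chromosome 4, LIN54, CCNG2 and NCAPG were named after their values were seen. Alternatives were quantile normalization, scaling to the same median, a pseudocount of 0.1, no filter or a value of at least 10, limma without trend, the replicate number as a block, and each library left out in turn. The counts of the 5 genes without OVCAR5 replicate 2 were added after the data were seen.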

Additional observations from a re-analysis of the deposited data

How the results depend on the processing

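Over 13 alternatives the log2 difference stayed below 0 for each of the 5 genes: -0.71 to -0.34 for CCNA2, -0.78 to -0.31 for MAD2L1 and PLK4, -1.17 to -0.50 for CENPE and -0.58 to -0.24 for H2AFZ. The stretch had medians of -0.82 to -0.68, the S phase list 0.16 to 0.45, the G2/M list 0.10 to 0.46, the cyclin A list 0.10 to 0.29, the checkpoint list 0.18 to 0.52, the kinetochore list 0.08 to 0.40 and the centriole list -0.08 to 0.14. The widest moves came with a library left out. The count of the 5 genes lower without overlap was 1 in all libraries and 4 without OVCAR5 replicate 2. The median of the H2A.Z list was near 0 throughout, with 0.052 under quantile normalization, 0.026 with libraries scaled to the same median, 0.027 with a value of at least 10 in 3 libraries, and -0.055 to -0.0050 with a library left out. CCNB1 turned to 0.08 without OVCAR5 replicate 3 and 0.15 without OVCAR5R replicate 3, within a range of -0.44 to 0.15 with a library left out. PTTG1 turned to 0.043 and 0.085, within -0.35 to 0.085. The cause was not tested. With a library left out, all genes called lower numbered 0 to 21 (12 with all libraries) and those called higher 0 to 8 (2 with all libraries). The most were called without OVCAR5 replicate 2, and none in either direction without OVCAR5R replicate 3. Those lower without overlap numbered 962 in all libraries, and between 1426 without OVCAR5R replicate 1 and 1932 without OVCAR5 replicate 3, as fewer libraries overlap less often by construction.

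With the replicate number as a block, 4 genes were called lower and 1 higher. Same-numbered libraries of the 2 lines did not clearly deviate together (r of -0.004, 0.18 and -0.12), and the labels name no pairing, so the block is given only here. With so few libraries this check cannot exclude a shared culture or preparation. With 3 libraries per line, and depth that differed between the lines, the parts of depth and of the spread between cultures in these values were not tested.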
